A study of Homo sapiens with 6 samples.

Results

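The 9 genes described here encode the cyclin D and retinoblastoma (RB) switch of the G1 phase: the D cyclins CCND1, CCND2 and CCND3, the kinases CDK4, CDK6 and CDK2, and the pocket proteins RB1, RBL1 and RBL2. They were taken by symbol from the 23698 gene rows of the deposited tables, where each had 1 row, and all 9 passed the filter on low counts. Poly(A) RNA was sequenced from MV4-11, an established acute myeloid leukaemia line with the internal tandem duplication of FLT3 and an MLL rearrangement. All cells were grown in the same serum-supplemented medium and carried a stably integrated lentiviral vector. The PRMT5/Knockdown group, 3 libraries numbered 1 to 3, expressed a short hairpin RNA directed at PRMT5, an enzyme that dimethylates arginine symmetrically. The Scrambled control group, also 3 libraries, carried a scrambled vector. How many hairpins or clones were used, and when after transduction RNA was taken, is not given in the labels.

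D cyclins bind CDK4 or CDK6 when growth factors signal, and the kinases then begin to phosphorylate the pocket proteins. Unphosphorylated RB1 holds the activating E2F factors and keeps the genes of DNA replication off, whereas RBL1 (p107) and RBL2 (p130) mainly bind the repressor E2Fs and, with the MuvB proteins, form the DREAM complex of resting cells. CDK2, with cyclin E and then cyclin A, completes the phosphorylation. Haematopoietic cells mostly use CCND2, CCND3 and CDK6, and CDK6 is a direct target of MLL fusion proteins in this type of leukaemia. These are transcript levels of a bulk culture, so fewer cells in a cell cycle phase and less RNA per cell cannot be told apart, and phosphorylation was not measured.

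RBL1 is itself known as an E2F target, and its promoter is shown because E2F target genes are read out beside it below. The motif TTTNNCGC, an E2F-like element, was searched on both strands in the 250 bases before each RefSeq gene start (GRCh38.p14). Of the 9 genes, 6 had an entry there, with 10 windows in all, and only the RBL1 window held a match; CCND1, CCND2 and CDK2 had no entry. The single RB1 window lay 172.7 kb downstream of the first RB1 start in GENCODE 29, and the single CDK4 window 3.7 kb into its gene. The CCND3 windows lay 1.7, 108.5 and 111.2 kb into that gene. The first starts of RB1, CDK4 and CCND3 were therefore not covered. The absence of a match says only that these letters are not in the windows searched. Matches stand in capitals, on the strand of the gene, at 26 and 16 bases before the start, and do not overlap. The window is chr20:37095998-37096247, minus strand.
RBL1: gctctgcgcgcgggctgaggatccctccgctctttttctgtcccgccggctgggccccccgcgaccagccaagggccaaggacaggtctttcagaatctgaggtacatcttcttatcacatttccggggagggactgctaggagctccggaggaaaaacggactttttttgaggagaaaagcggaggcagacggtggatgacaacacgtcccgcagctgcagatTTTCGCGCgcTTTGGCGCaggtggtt
Of all 35116 windows of this length, 5.92% held the motif, as did 10 of 30 windows of the listed G1/S target genes (33.3%). A match is a run of letters and not a measured binding site.

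Libraries held 16408484 to 19077106 estimated counts. Across 13668 tested genes, log2 CPM (read counts scaled to library depth with TMM factors) correlated at 0.952 to 0.995 between pairs of libraries that did not involve the library labelled Scrambled control 2, and at 0.876 to 0.923 between that library and the others. Of all tested genes, 30.3% lay more than 1 log2 unit from the mean of controls 1 and 3 in that library. PRMT5 itself held 103, 71.6 and 53.0 CPM in knockdown 1 to 3, against 133, 53.2 and 158 CPM in the controls, so in the library labelled Scrambled control 2 it went against the label. Knockdown minus control, PRMT5 had a log2 difference of −0.60 (SE 0.43; edgeR adjusted p = 0.926), which ranged from −0.94 without the library labelled Scrambled control 2 to −0.29 without control 3. Results for the 9 genes, their shares and sums, and the medians of the pathway gene lists below are therefore given with and without that library. Single genes of those lists are mostly given with all 6 libraries only. All 10 myeloid markers had a mean of at least 1 CPM (summed level 1878 to 2720 CPM in the knockdown and 1921 to 2569 CPM in the control libraries), while CD2, CD3E, HBB, HBA1, EPCAM and COL3A1 had no count in any library. Single myeloid markers shifted in the library labelled Scrambled control 2 under a similar sum. LYZ (lysozyme) was at 35.3 CPM there and at 430 to 1268 CPM in the other 5, and MPO (myeloperoxidase) at 13.8 against 56.5 to 503 CPM. MEIS1 and HOXA9, transcription factors of immature cells, were at 102 and 296 CPM there, against 18.3 to 32.9 and 78.5 to 96.2 CPM. PAX5, KRT8 and PDGFRB were the B cell, epithelial and stromal markers at or above 1 CPM on average. The summed epithelial level was 4.23 to 7.35 CPM in the knockdown and 4.09 to 27.6 CPM in the control libraries, and the stromal one 0.487 to 1.15 and 0.466 to 7.26 CPM. Both were highest in the library labelled Scrambled control 2, where KRT8 reached 27.6 CPM and COL1A1, a collagen, 4.99 CPM (at most 0.340 CPM elsewhere). The part of these markers in the results below was not tested.

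Levels were first compared between the genes per kilobase of merged exons, in CPM per kilobase over the 6 libraries. CDK4 had the highest mean (76.8), followed by CCND3 (38.9), CDK6 (33.7), RB1 (25.9), RBL2 (23.0), CCND2 (16.1), CDK2 (15.8), RBL1 (5.28) and CCND1 (1.58). Within libraries, CDK4 was above CCND3 in all 6, CDK2 above RBL1 in all 6 and RBL1 above CCND1 in all 6. Neighbours that changed places between libraries were CCND3 and CDK6 (CCND3 higher in 4 of 6), RB1 and RBL2 (RB1 higher in 5 of 6), RBL2 and CCND2 (RBL2 higher in 5 of 6), and CCND2 and CDK2 (CCND2 higher in 2 of 6). CDK6 was above RB1 in all 6, by a ratio as small as 1.002. These orders rest on gene lengths of GENCODE 29, since the annotation behind the deposited counts is not given. With the longest transcript as the length, CDK4 was above CCND3 in 5 of 6 libraries, CCND3 above CDK6 in all 6 and CDK6 above RB1 in 3 of 6.

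Among the D cyclins, CCND3 dominated in 5 of the 6 libraries. Per kilobase, CCND3 made up 64.9%, 78.3% and 87.9% of the 3 D cyclin transcripts in knockdown 1 to 3, and 75.4%, 32.2% and 86.9% in the libraries labelled control 1 to 3. CCND2 took most of the remainder, with 31.1%, 17.6% and 10.3% in the knockdown and 22.2%, 65.5% and 11.3% in the control libraries. CCND1 contributed 1.77% to 4.10% in every library. The library labelled Scrambled control 2 was thus the only one in which CCND2 exceeded CCND3, and with the longest transcript as the length CCND3 was higher there too, by a ratio of 1.08.

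The group means of these shares did not separate. CCND3 averaged 77.0% ± 11.5 (SD, n = 3) in the knockdown and 64.8% ± 28.8 (SD, n = 3) in the control libraries (exact permutation test, two-sided, p = 0.6). CCND2 averaged 19.7% ± 10.5 and 33.0% ± 28.7 (exact permutation p = 0.6), and CCND1 3.28% ± 1.31 and 2.17% ± 0.315 (exact permutation p = 0.4). With 3 libraries against 3 this test cannot give a p below 0.1. Over the 10 exact tests of shares and sums, the Benjamini-Hochberg adjusted values were 0.75 to 0.9. The difference in the CCND3 share, knockdown minus control, turned from 12.2 to −4.09 percentage points without the library labelled Scrambled control 2, and that of CCND2 from −13.3 to 2.95.

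**Figure D1:**
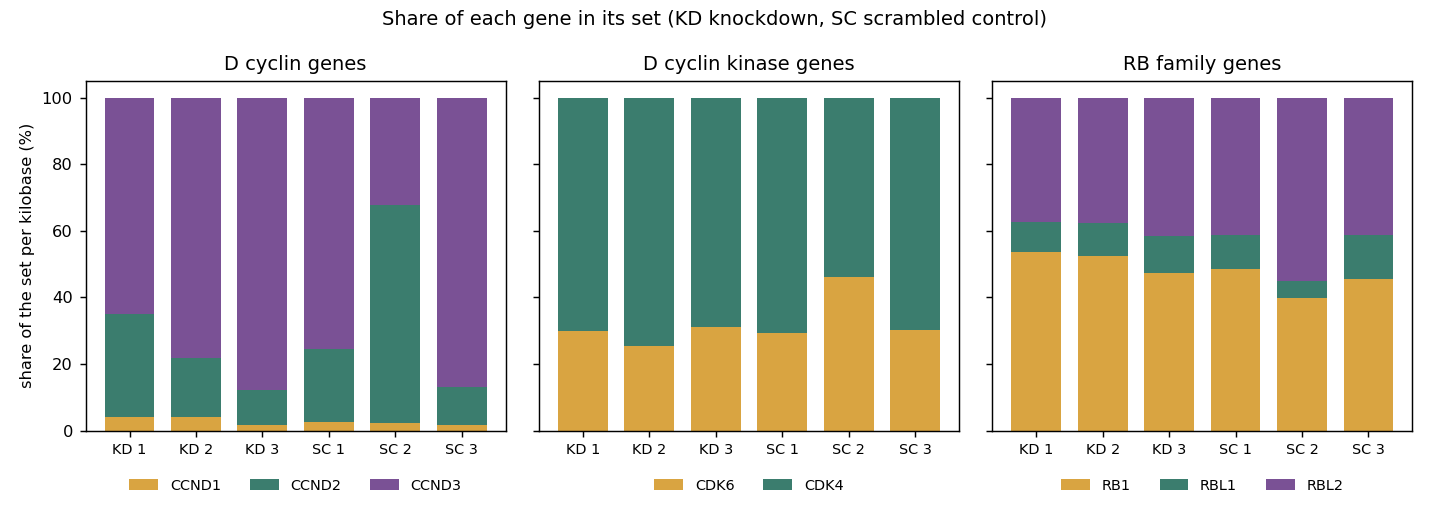
Share of each gene within its set, in percent of the TMM-scaled counts per kilobase of merged exons, for each of the 6 libraries (KD, PRMT5 knockdown; SC, scrambled control); the bars of a set add up to the whole. CCND3 is the largest D cyclin and RB1 the largest pocket gene in 5 libraries, while in SC 2 CCND2 (65.5%) and RBL2 (55.2%) are.

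In CPM, CCND3, the D cyclin most widely used in haematopoietic cells, was at 202, 305 and 235 in the knockdown libraries and at 262, 128 and 222 in the libraries labelled control 1 to 3. The groups overlapped, with knockdown 2 the highest and the library labelled Scrambled control 2 the lowest. Knockdown minus control, the log2 difference was 0.28 (SE 0.31, 95% interval −0.44 to 1.00; edgeR quasi-likelihood adjusted p = 0.926), and it was 0.04 without that library.

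CCND2, a D cyclin known to be induced by cytokine signals and MYC, had the widest spread of the 9 genes. It was at 120, 84.9 and 34.1 CPM in knockdown 1, 2 and 3, against 95.3, 320 and 35.6 CPM in the libraries that are labelled control 1, 2 and 3, a 9.40-fold range. Its coefficient of variation over the 6 libraries, 92.3%, was above that of 97.8% of the 11066 genes that averaged at least 5 CPM, whose median was 24.9%. The low values were those of both libraries numbered 3, and the high one was that of the library labelled Scrambled control 2. Its log2 difference was −0.92 (SE 0.78, 95% interval −2.73 to 0.89; edgeR adjusted p = 0.926), and without the library labelled Scrambled control 2 it turned to 0.28.

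CCND1, the D cyclin of many solid tissues, was near the lower end of the measured range. It was at 10.3, 13.3 and 3.95 CPM in knockdown 1, 2 and 3, against 7.09, 7.33 and 3.88 CPM in the libraries that are labelled control 1, 2 and 3. The lowest value stood for 73 counts (exact Poisson 95% interval 57.2 to 91.8, counting error only). Both libraries numbered 3 were low, and the other 4 were all higher. The log2 difference was 0.59 (SE 0.50, 95% interval −0.57 to 1.75; edgeR adjusted p = 0.926). It was 0.23 without knockdown 2, 0.95 without knockdown 3 and 0.75 when the library labelled Scrambled control 2 was left out.

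The summed level of the D cyclin genes, a quantity added after the data were seen, spread less than CCND2 alone. It was 53.7, 67.2 and 46.1 CPM per kilobase of merged exons in the knockdown libraries and 60.0, 68.3 and 44.0 in the libraries labelled control 1 to 3, a 1.55-fold range. The group means, 55.7 ± 10.7 and 57.4 ± 12.3 (SD, n = 3), gave an exact permutation p of 0.9, and their difference turned from −1.76 to 3.66 without the library labelled Scrambled control 2.

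**Figure D2:**
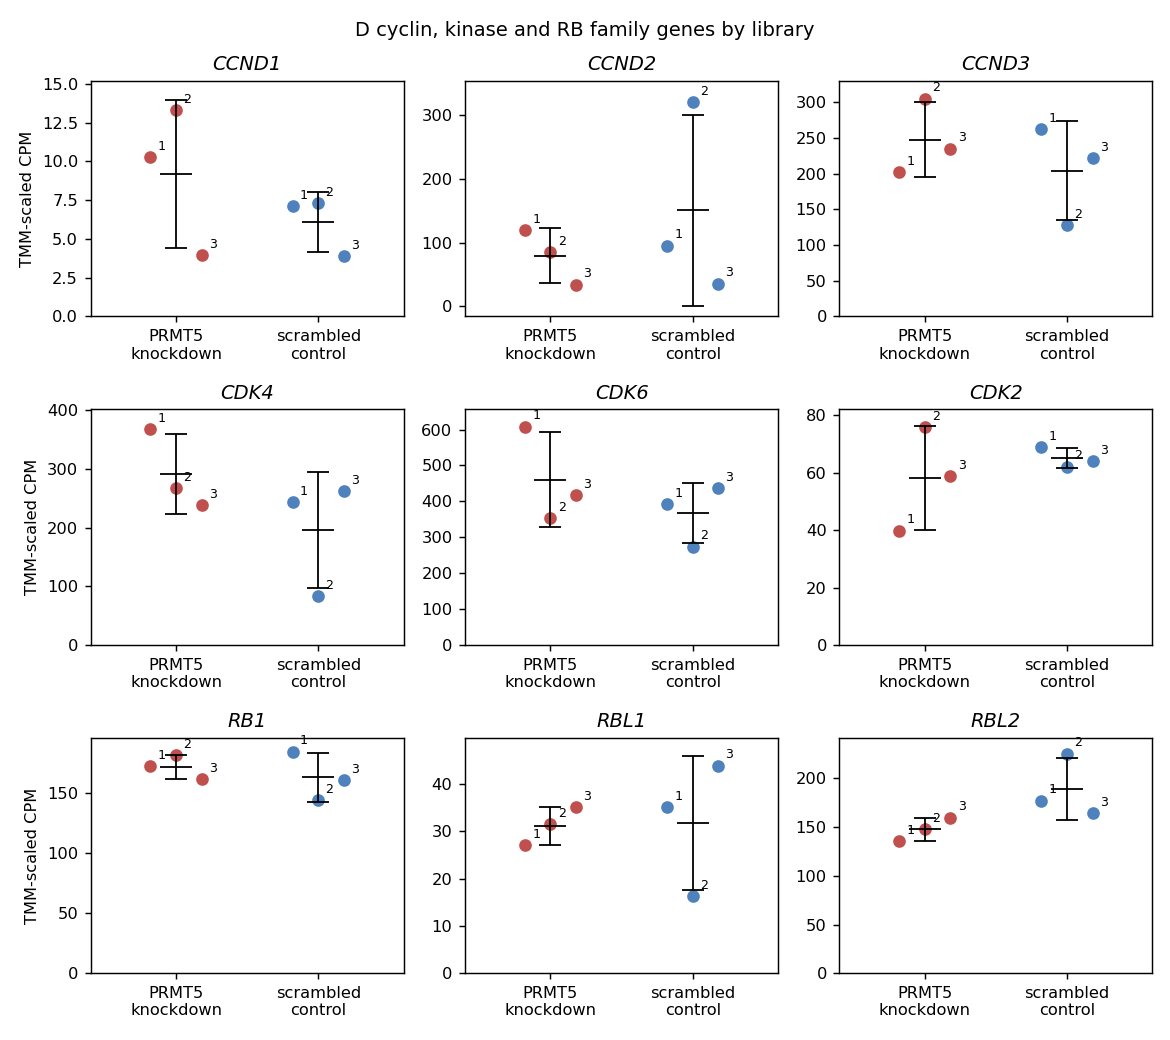
TMM-scaled CPM of each gene in each library (points, numbered as in the sample titles; each panel has its own axis), with the group mean and SD as bars (n = 3). The library labelled Scrambled control 2 holds the highest CCND2 (320 CPM) and RBL2 (226 CPM) and the lowest CCND3, CDK4, CDK6, RB1 and RBL1.

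CDK4 and CDK6, the kinases that D cyclins activate, were both abundant. CDK4 was at 368, 267 and 239 CPM in knockdown 1, 2 and 3, against 243, 82.6 and 262 CPM in the libraries that are labelled control 1, 2 and 3. The library labelled Scrambled control 2 stood below the other 5, and the rest of the control values lay inside the knockdown range. Knockdown minus control, the log2 difference was 0.57 (SE 0.43, 95% interval −0.43 to 1.57; edgeR adjusted p = 0.926) and 0.21 without that library.

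CDK6, which can also act at chromatin apart from its kinase role, was at 608, 353 and 418 CPM in knockdown 1, 2 and 3, against 392, 274 and 436 CPM in the libraries that are labelled control 1, 2 and 3. Knockdown 1 was the highest and the library labelled Scrambled control 2 the lowest, with overlap between the groups. Its log2 difference was 0.32 (SE 0.29, 95% interval −0.35 to 1.00; edgeR adjusted p = 0.926), and without that library it was 0.15. Leaving out knockdown 1 instead gave 0.07.

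Which of these kinases led depended on the length correction. By counts, CDK6 exceeded CDK4 in all 6 libraries, and per kilobase of merged exons CDK4 exceeded CDK6 in all 6, by 1.17-fold to 2.92-fold. The CDK6 transcript is long, with 12260 bases of merged exons against 3168 for CDK4. CDK6 made up 28.9% ± 2.98 of the pair per kilobase in the knockdown and 35.2% ± 9.47 in the control libraries (SD, n = 3; exact permutation p = 0.5). Among libraries it ranged from 25.5% to 31.2%, apart from 46.2% in the library labelled Scrambled control 2. The kinase sum was likewise added after the data were seen. It was 166, 113 and 109 CPM per kilobase in the knockdown libraries and 109, 48.4 and 118 in the libraries labelled control 1 to 3 (exact permutation p = 0.4). Leaving out the library labelled Scrambled control 2 moved the difference in the kinase sum from 37.6 to 15.97 CPM per kilobase, and that in the CDK6 share from −6.38 to −0.91 percentage points.

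CDK2, the kinase of cyclins E and A, was at 39.8, 76.1 and 58.8 CPM in knockdown 1, 2 and 3, against 68.9, 62.2 and 64.0 CPM in the libraries that are labelled control 1, 2 and 3. The knockdown values spanned the control values on both sides, with knockdown 1 the lowest of the 6. The log2 difference was −0.16 (SE 0.27, 95% interval −0.78 to 0.46; edgeR adjusted p = 0.926). Here the library labelled Scrambled control 2 lay beside the other controls (−0.19 when it was left out), and without knockdown 1 the difference turned to 0.05.

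Among the pocket genes RB1 led in 5 of 6 libraries, with RBL2 close behind and RBL1 far lower. Per kilobase, RB1 made up 53.6%, 52.5% and 47.4% of the set in knockdown 1 to 3 and 48.7%, 39.9% and 45.5% in the libraries labelled control 1 to 3. RBL2 made up 37.3%, 37.7% and 41.5%, against 41.3%, 55.2% and 41.1%, and RBL1 between 4.90% and 13.4%. RB1 was 1.11-fold to 1.44-fold above RBL2 in 5 libraries and below it in the library labelled Scrambled control 2 (ratio 0.724). With the longest transcript as the length, RB1 and RBL2 were also level in control 3 (ratio 0.998). The difference in the mean RB1 share, 51.2% ± 3.32 against 44.7% ± 4.42 (SD, n = 3), had an exact permutation p of 0.2, and that of RBL2, 38.8% ± 2.31 against 45.9% ± 8.07, one of 0.3. These differences were 6.49 and −7.07 percentage points, and 4.11 and −2.41 without the library labelled Scrambled control 2. For RBL1 the means were 10.0% ± 1.04 and 9.46% ± 4.30 (exact permutation p = 0.9), and its difference turned from 0.58 to −1.71 percentage points without the library labelled Scrambled control 2.

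RB1, the retinoblastoma tumour suppressor, was the steadiest of the 9 genes. It was at 172, 181 and 161 CPM in knockdown 1, 2 and 3, against 184, 144 and 161 CPM in the libraries that are labelled control 1, 2 and 3, a 1.28-fold range. Its coefficient of variation of 9.03% was above that of only 4.97% of the genes with at least 5 CPM. The groups overlapped throughout, and the log2 difference was 0.08 (SE 0.19, 95% interval −0.37 to 0.52; edgeR adjusted p = 0.949). It was −0.004 without the library labelled Scrambled control 2.

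RBL1, the pocket protein of cycling cells, was at 26.99, 31.4 and 35.0 CPM in knockdown 1, 2 and 3, against 35.1, 16.3 and 43.8 CPM in the libraries that are labelled control 1, 2 and 3. Both extremes were control libraries, and the lowest stood for 251 counts (exact Poisson 95% interval 221 to 284, counting error only). Knockdown minus control, the log2 difference was −0.03 (SE 0.36, 95% interval −0.88 to 0.82; edgeR adjusted p = 0.991). Without the library labelled Scrambled control 2 it was −0.34.

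RBL2, the pocket protein that accumulates in resting cells, was the 1 gene of the 9 whose groups did not overlap. It was at 136, 148 and 160 CPM in knockdown 1, 2 and 3, against 177, 226 and 165 CPM in the libraries that are labelled control 1, 2 and 3. Every knockdown library was lower than every control, by the smallest margin between knockdown 3 and control 3. Among all tested genes, 6.24% had groups that did not overlap and 3.1% had knockdown libraries wholly below the controls, so 1 of 9 is a share from a small list and was not tested. The separation was present under TMM, RLE, upper quartile and total-count scaling. Its log2 difference was −0.36 (SE 0.21, 95% interval −0.84 to 0.13; edgeR adjusted p = 0.926). Leaving out the library labelled Scrambled control 2 gave −0.21.

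The summed pocket gene level, a quantity added after the data were seen, was 49.8, 53.6 and 52.7 CPM per kilobase in the knockdown libraries and 58.7, 55.8 and 54.7 in the libraries labelled control 1 to 3. The means of 52.0 ± 1.98 and 56.4 ± 2.03 (SD, n = 3) did not overlap in their libraries, and the exact permutation p of 0.1 is the smallest this design gives (0.75 adjusted over the 10 exact tests). The difference in the pocket sum was −4.40 with all libraries and −4.69 without the library labelled Scrambled control 2. By gene, the knockdown and control means were 20.2 and 25.85 for RBL2, 26.6 and 25.2 for RB1, and 5.23 and 5.33 for RBL1. With all libraries the lower sum thus lay mainly in RBL2, described above, and RB1 went the other way. Under upper quartile and total-count scaling the groups overlapped, and with the median transcript as the length they overlapped under all 4 scalings.

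**Figure D3:**
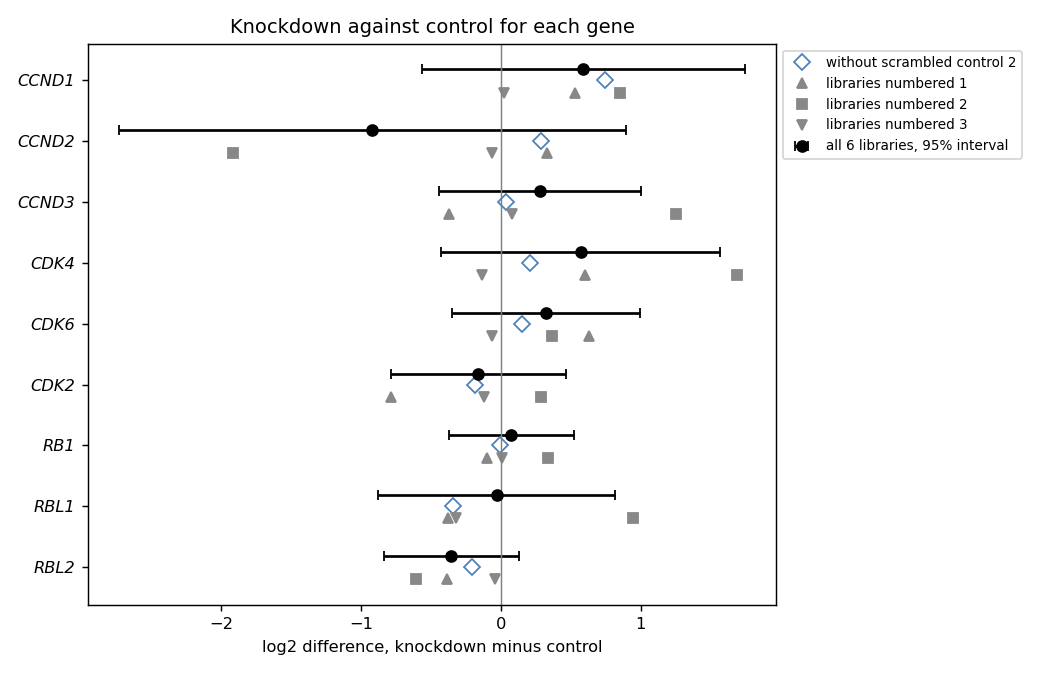
Log2 difference of knockdown minus control for each gene (black, edgeR estimate with its 95% interval; open diamonds, the estimate without the library labelled Scrambled control 2; grey symbols, differences between libraries with the same number). Every interval includes 0, and the widest is that of CCND2, −2.73 to 0.89.

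None of the 9 genes passed the test of knockdown against control, and neither did any other gene: edgeR called 0 of 13668 genes at an adjusted p under 0.05 (0%). Before adjustment, 242 genes (1.77%) had a p under 0.05, and none of the 9 was among them. That share is smaller than the fraction of 0.05 that uniformly distributed p-values would give. The number depended on the libraries used: it was 33 without knockdown 1 and 1307 without control 3. DESeq2 and limma-voom also called 0, with 461 and 117 genes under 0.05 before adjustment. Of the 9 log2 differences, 5 were positive and 4 negative, with a median of 0.08 beside −0.0007 over all tested genes. Across 15 alternative settings, CCND1, CDK4 and CDK6 were on the positive side in each, RBL2 on the negative side in each, and the other 5 changed sign in at least 1. These settings refit the same libraries or part of them, so a shared sign is not repeated evidence. CDK6 fell to 0.07 and CDK4 to 0.21 with 1 library left out. Between knockdown 3 and control 3, CDK4 (−0.13), CDK6 (−0.06) and RBL2 (−0.04) were negative and CCND1 (0.02) positive. A missed threshold does not show that the levels were alike: for CDK4 the interval reached a log2 difference of 1.57.

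Differences between libraries of the same number were unlike one another. In pair 1 the 9 genes ranged from −0.79 (CDK2) to 0.63 (CDK6) on the log2 scale. In pair 2 they ranged from −1.91 (CCND2) to 1.69 (CDK4). In pair 3, the pair with PRMT5 2.99-fold lower on the knockdown side, they ranged only from −0.32 (RBL1) to 0.08 (CCND3). Knockdown 3 and control 3 were close in general, with a median absolute log2 difference of 0.10 over all tested genes and 0.812% of genes more than 1 unit apart. A single pair has no replicate, so these values describe those libraries.

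The other genes of the pathway were taken as 6 lists, and no gene of any list passed (edgeR adjusted p of 0.926 or above), nor had any an unadjusted p under 0.05. Of the INK4 and CIP/KIP inhibitors, which block the D cyclin kinases and CDK2, 5 of 7 were tested: 1 had a positive and 4 a negative log2 difference, with a median of −0.77. CDKN2A and CDKN2B had no count in any library. With 3 expected counts per library taken as an approximate upper bound for a count of 0, this stands for 0.157 to 0.183 CPM. CDKN1B (p27) was at 62.7, 58.5 and 52.7 CPM in knockdown 1, 2 and 3, against 80.3, 140 and 56.3 CPM in the libraries that are labelled control 1, 2 and 3 (log2 difference −0.67, SE 0.34). CDKN2D (p19) and CDKN1C (p57) had differences of −0.79 and −3.03. All 3 were highest in the library labelled Scrambled control 2, as were 4 of the 5 tested inhibitors; CDKN1C was at 25.4 CPM there and at 0.363 to 1.46 CPM in the other 5. Without that library the list's median was −0.16, and CDKN1C turned to 0.71. The 1 positive difference was that of CDKN1A (p21), 0.96 (SE 0.51), the tested inhibitor with the most CPM in every library. It was at 1465, 681 and 368 CPM in knockdown 1, 2 and 3. The libraries labelled control 1, 2 and 3 held 465, 551 and 277 CPM. The groups overlapped, with knockdown 1 far above the rest and knockdown 3 inside the control range. The CDKN1A difference was not examined with a library left out.

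Of the E2F and DP factors, the partners that pocket proteins hold, 8 of 10 had a positive log2 difference (median 0.28), against 49.9% of all tested genes. E2F4, the main repressor partner of RBL1 and RBL2, was at 146, 102 and 141 CPM in knockdown 1, 2 and 3, against 87.4, 48.6 and 136 CPM in the libraries that are labelled control 1, 2 and 3 (log2 difference 0.51, SE 0.37). E2F6 and E2F3 had 0.37 and 0.26. For 8 of the 10 the lowest value was in the library labelled Scrambled control 2, against 36.7% of all tested genes, and without it the median was 0.10.

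Of 25 E2F target genes of the G1/S transition, 20 had a positive and 5 a negative log2 difference (median 0.16). PCNA, the sliding clamp of replication, was at 280, 319 and 305 CPM in knockdown 1, 2 and 3, against 215, 107 and 304 CPM in the libraries that are labelled control 1, 2 and 3 (log2 difference 0.53, SE 0.36). UNG, the uracil glycosylase, had 0.63, and CDT1, which licenses replication origins, −0.50. In the library labelled Scrambled control 2, 22 of the 25 genes were at their lowest, and the list's median log2 difference from controls 1 and 3 was −1.54. Against those 2 controls alone, the knockdown mean was higher for 2 genes and lower for 23, and the list's median turned to −0.21. Of all 13668 tested genes, 6692 were higher and 6976 lower in that comparison. By library, as given next, the list in knockdown 1 lay below both of these controls. In knockdown 2 and 3 it lay between control 1 and control 3.

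RBL1, whose promoter is printed above, had its lowest value in the library labelled Scrambled control 2, 0.88 log2 units below its mean over the 6 libraries. The E2F target list stood at −1.20 there. Both were highest in control 3 (0.54 for RBL1 and 0.57 for the list). In knockdown 1 they stood at −0.16 and −0.38, in knockdown 2 at 0.06 and 0.31, in knockdown 3 at 0.22 and 0.45, and in control 1 at 0.22 and 0.12. RB1 was also lowest in the library labelled Scrambled control 2, and RBL2 was highest there.

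The remaining lists were centred nearer to 0. Of 9 genes for cyclins E and A and CDK activation, 5 had positive differences (median 0.15, and −0.06 without the library labelled Scrambled control 2). CCNA1, an A-type cyclin, had 0.78 (SE 0.38), CCNH, a subunit of the CDK-activating kinase, 0.22 and CCNE2, an E-type cyclin, 0.56. CCNE2 ranged from 34.7 to 69.5 CPM in 5 libraries and was lowest, 8.69 CPM, in the library labelled Scrambled control 2. Of 9 DREAM and MuvB genes, 5 were positive (median 0.003, and −0.02 without that library), with RBBP4, a histone-binding subunit, at 0.30, MYBL2, which joins MuvB in S phase, at 0.25, and DYRK1A, the kinase that promotes DREAM assembly, at −0.25. Of 12 genes for the turnover of D cyclins and p27, 7 were positive (median 0.04, and −0.04 without that library). FBXW7, the F-box protein for cyclin E, had −0.47, CKS1B, a cofactor of p27 degradation, −0.23, and CUL1, the SCF scaffold, 0.33.

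**Figure D4:**
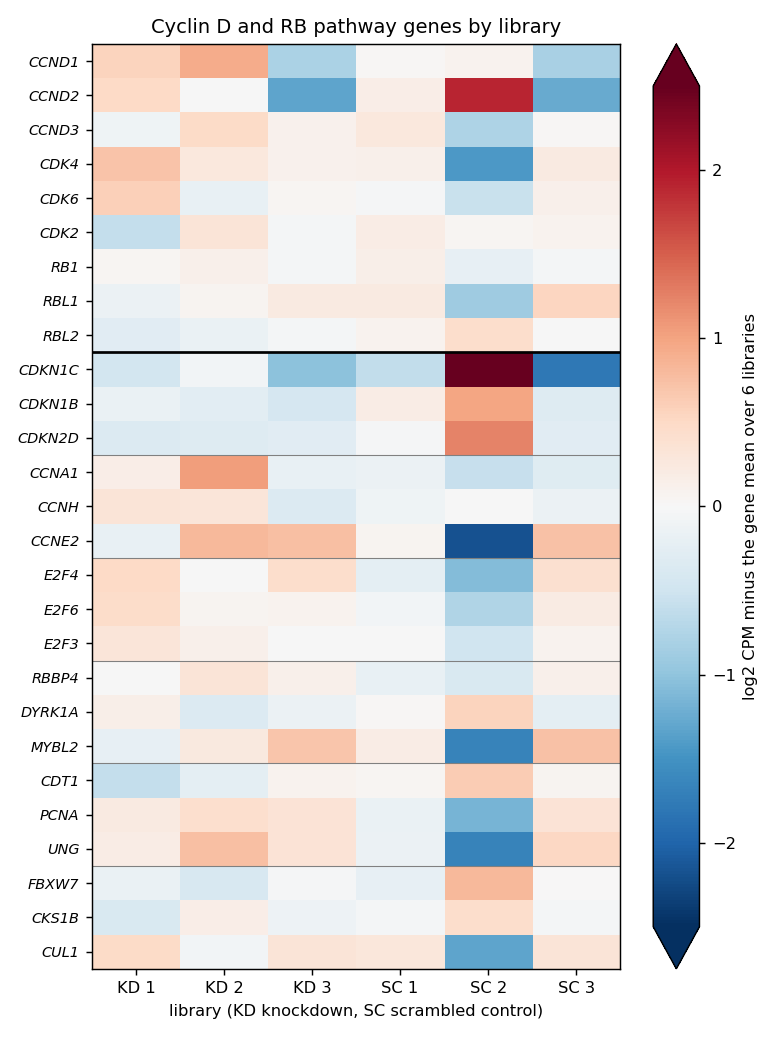
Log2 CPM minus the mean of the gene over the 6 libraries (colour scale), for the 9 genes (above the black line) and the 3 genes with the smallest p of each pathway list (grey lines part the lists). The column SC 2 holds most of the strong colours: CCND2 and the CDK inhibitors drawn (CDKN1C, CDKN1B and CDKN2D) are high there, and CDK4, RBL1, CCNE2, MYBL2, PCNA and UNG low.

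For the leading gene of each set, the genes with the most similar pattern over the 6 libraries were listed by Pearson's r of log2 CPM, among 9810 genes and as a description only. CCND3 was most like ICAM1 (r = 0.997), DCLRE1A (0.987) and the read-through gene TNFSF12-TNFSF13 (0.985), whose reads may be shared with its neighbours. CDK4 was most like MON1B, DANCR and ELP3 (r = 0.998 each). RB1 was most like CUEDC2 (0.995), the pseudogene SPDYE7P (0.995), whose reads may belong to near-identical copies, and HDAC4 (0.992). All 9 of these genes, like the 3 leading genes, had their lowest level in the library labelled Scrambled control 2. Among the 9 cyclin, kinase and pocket genes, CDK4 and CDK6 had r = 0.863 over the 6 libraries, CCND3 and RB1 0.873, CCND2 and RBL1 −0.915, and CDK4 and RBL2 −0.946, with that library at one end of each.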

How the data were processed

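The authors deposited 1 table of expected counts (estimated counts) per library, not scaled to depth, for 6 poly(A) RNA-seq libraries of MV4-11 cells. Per the submitters' processing notes, CASAVA 1.9, TopHat2 (version 2) and edgeR were used with build hg19, in roles that are not stated. The counter, annotation and strand use were not given in the sources used here, so overlapping and antisense genes may share reads. Counts were rounded. Genes passing filterByExpr (minimum count 10) entered the quasi-likelihood test of edgeR 4.0.16 under R 4.3.3 (TMM, glmQLFit, glmQLFTest, group as the only term, two-sided), with Benjamini-Hochberg adjustment over all tested genes and a threshold of 0.05. Log2 CPM used a prior count of 2.

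Levels between genes used merged exon lengths of GENCODE 29, matched by symbol (all 9 genes). Single shares and sums were compared with exact permutation tests (scipy 1.17.1). The code was tested on simulated counts.

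The titles number both groups 1 to 3. Deviations from group means correlated at 0.127, 0.394 and 0.566 for same-numbered libraries, each above 0.1. Knockdown 2 with control 1 also passed that level, at 0.164, above the 0.127 of the libraries numbered 1. These values therefore do not show that the libraries numbered 1 belong together, and the labels state no shared day or batch. The word pair is used only as a name for libraries of the same number. Nothing says that replicates were separate cultures, so p-values measure the spread between these libraries, which may be technical. Counts without molecular identifiers carry amplification error beyond counting error.

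The 9 genes and the pathway lists were chosen with earlier results of these data known. Named genes were the 9 genes, PRMT5, the 3 smallest p-values of each pathway list, and the 3 genes most correlated with the leading gene of each set (official symbol, mean of at least 5 CPM). CDKN2A, CDKN2B and the low and high marker genes are named as counts of 5 or fewer or as markers. CDKN1A is named as the 1 tested inhibitor with a positive difference. Alternatives were scaling by RLE, by upper quartile or by total counts, other filters, DESeq2 1.42.0, limma-voom (limma 3.58.1), the replicate number as a block, each library left out, both libraries numbered 2 left out, and other gene lengths.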

Additional observations from a re-analysis of the deposited data

How the results depend on the processing

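No alternative called any of the 9 genes, any pathway list gene or any other gene. The replicate block changed no call (0 genes called; smallest adjusted p = 0.709), and with it the log2 difference of RBL1 was 0.070, and with limma-voom it was 0.066, against −0.03. With both libraries numbered 2 left out, differences turned for CCND2 (0.23), CCND3 (−0.15), RB1 (−0.049), CDKN1C (0.44), CCNE2 (−0.085), DYRK1A (0.11) and MYBL2 (−0.16). With 1 library left out at a time, the log2 difference ranged from −1.38 to 0.28 for CCND2, −0.40 to 0.047 for CDK2, −0.0038 to 0.17 for RB1, −0.34 to 0.28 for RBL1, −3.59 to 0.71 for CDKN1C, −0.42 to 0.0032 for DYRK1A, −0.18 to 0.76 for MYBL2 and −0.033 to 0.57 for CUL1. Some pathway genes kept their sign but changed much in size. These were E2F4 (0.21 to 0.93), PCNA (0.22 to 0.91), UNG (0.23 to 1.17) and CCNE2 (0.09 to 1.19). On the negative side were CDKN1B (−0.92 to −0.23), CDKN2D (−1.05 to −0.16) and FBXW7 (−0.66 to −0.10). The difference in share ranged from −24.2 to 2.95 percentage points for CCND2, from −4.09 to 23.2 for CCND3 and from −1.71 to 2.56 for RBL1, and the D cyclin sum from −8.45 to 3.66 CPM per kilobase (7.97 with the longest transcript). Gene length moved mean shares over the libraries: with the longest transcript CCND1 was at 1.52% and CDK6 at 24.7%; with the median transcript length RB1 was at 54.1%, RBL1 at 3.36% and CDK6 at 63.8%; with no length scaling CDK6 was at 64.0%. The median transcript length rests on short partial transcripts. The cause of the other changes was not tested. The biological coefficient of variation was 0.373, so small differences could not be resolved.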
